A study of Mus musculus with 15 samples.

Results

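Fkbp5, Zbtb16, Sult1a1, Plin4, Sgk1, Tsc22d3, Mt1 and Mt2 are genes whose transcripts are known to respond to glucocorticoids, and they were taken by name from a table of 24831 gene names. All 8 were found, with 22 of the 49404 transcripts in the table. The samples were hypothalami taken on postnatal day 15 from mice of the outbred stock CD-1, in a series whose title concerns thyroid hormone and the F2 generation. The 15 samples formed the groups PGM, PGF, HM, HF and Control as biological triplicates, 3 samples in each. The labels give the same stock, age and tissue for every group and name the groups by these codes alone, so the sources used here do not give the exposure or the sex of the animals. Each value was the authors' deposited mean over the samples of a group in RPKM, the reads per kilobase of transcript, scaled to the mapped reads of a library. No value per animal was used, so no SD, test or p-value accompanies a difference, read depth is unknown, and neighbouring levels in any order of groups cannot be told apart from the spread between animals.

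Glucocorticoids bind the glucocorticoid receptor, which is held in the cytosol by a chaperone complex, moves to the nucleus and acts on genes that carry its response element, a palindrome of paired hexamers. In the hypothalamus the hormone closes the feedback loop that restrains corticotropin-releasing hormone. Fkbp5 encodes a cochaperone that lowers the affinity of the receptor for its ligand, Zbtb16 a zinc finger transcription factor, Tsc22d3 the leucine zipper protein GILZ and Sgk1 a kinase that regulates ion channels and transporters. Sult1a1 encodes a sulfotransferase for phenolic compounds and Plin4 a coat protein of lipid droplets. Mt1 and Mt2 encode small proteins that bind zinc and copper, and their genes also respond to metals through a separate element, the metal response element.

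Start site windows of 7 of the 8 genes, 14 windows in all, were found in RefSeq sequence of GRCm38.p6, the assembly also called mm10. Each window held 250 bases before and 50 bases after a start site. The full glucocorticoid response palindrome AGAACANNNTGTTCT was in 1 of the 14 windows, that of the Sgk1 start site at position 21993890 of chromosome 10, and in 3 of 32851 windows (0.00913%) over all genes. Its arm AGAACA, searched on both strands and contained in the palindrome, was in 5 of the 14 windows, belonging to Sgk1, Sult1a1 and Tsc22d3, and in 19.0% of all windows. The core of the metal response element, TGCACNC or TGCGCNC on either strand, was in the windows of Mt2 (4 matches), Mt1 (3 matches) and 1 Sgk1 start site, and in 25.7% of all windows. No match of any of the 3 motifs was in the windows of Fkbp5 and Plin4. A match describes the letters of the window only. These stretches are examples chosen from the windows with a match. Each is the 250 bases before the start site, read 5′ to 3′ on the strand of the gene. Matches of the arm, the palindrome or the metal element are in capitals.
Sgk1, chr10:21993640-21993889, plus strand: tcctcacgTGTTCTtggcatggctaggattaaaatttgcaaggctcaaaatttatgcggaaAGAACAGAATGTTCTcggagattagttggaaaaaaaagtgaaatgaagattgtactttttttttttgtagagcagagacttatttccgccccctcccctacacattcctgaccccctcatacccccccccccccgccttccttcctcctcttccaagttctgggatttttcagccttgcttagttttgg
Mt2, chr8:94172368-94172617, plus strand: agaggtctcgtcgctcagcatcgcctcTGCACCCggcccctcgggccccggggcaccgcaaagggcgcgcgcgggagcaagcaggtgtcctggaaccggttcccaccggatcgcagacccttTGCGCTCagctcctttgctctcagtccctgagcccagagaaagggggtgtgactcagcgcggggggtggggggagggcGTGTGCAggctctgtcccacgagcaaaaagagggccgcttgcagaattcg
Sult1a1, chr7:126676419-126676668, minus strand: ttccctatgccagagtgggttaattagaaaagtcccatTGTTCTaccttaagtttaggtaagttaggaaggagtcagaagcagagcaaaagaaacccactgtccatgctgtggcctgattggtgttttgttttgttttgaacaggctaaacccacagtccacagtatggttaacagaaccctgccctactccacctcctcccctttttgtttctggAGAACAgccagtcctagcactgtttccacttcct
Tsc22d3, chrX:140600523-140600772, minus strand: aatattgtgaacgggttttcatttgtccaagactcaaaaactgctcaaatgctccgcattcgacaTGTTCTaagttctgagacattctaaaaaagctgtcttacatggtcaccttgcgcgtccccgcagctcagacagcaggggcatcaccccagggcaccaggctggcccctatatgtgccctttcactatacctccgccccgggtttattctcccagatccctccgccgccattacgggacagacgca
The palindrome of Sgk1 read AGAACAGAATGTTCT and began 189 bases before the start site. In the Mt1 window 1 metal element match lay before the start site and the others just after it.

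Sex-linked genes differed between the groups, with HM and HF between Control and the groups PGM and PGF. Ddx3y, on the Y chromosome, was at 30.4 RPKM in PGM, 32.0 in PGF, 16.75 in HM, 15.9 in HF and 2.52 in Control, and Xist was at 14.2, 11.6, 26.4 and 35.4 RPKM in those groups, against 44.0 in Control. PGM and PGF thus also differed from HF in these genes. The part of this in the members' differences from Control or HF was not tested. Of the markers of hypothalamic neurons 12 of 12 were detected in the tissue labelled hypothalamus, with summed levels from 1387 RPKM in PGF to 2057 in Control. By median these markers were at -0.77 in PGM and -0.99 in PGF, -0.26 in HM and -0.10 in HF, with 11, 10, 8 and 9 of the 12 lower than in Control. Of the 17481 genes kept, 8534, 9719, 10466 and 7178 were lower in those groups. A gene was kept when its mean over the groups reached 1 RPKM, which held for 17481 names and all 8 members, and the groups' medians over the kept genes ran from 18.4 to 19.1 RPKM. A difference compares group values of log2(RPKM + 0.5), a scale that understates the differences of low genes such as Plin4.

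**Figure D1:**
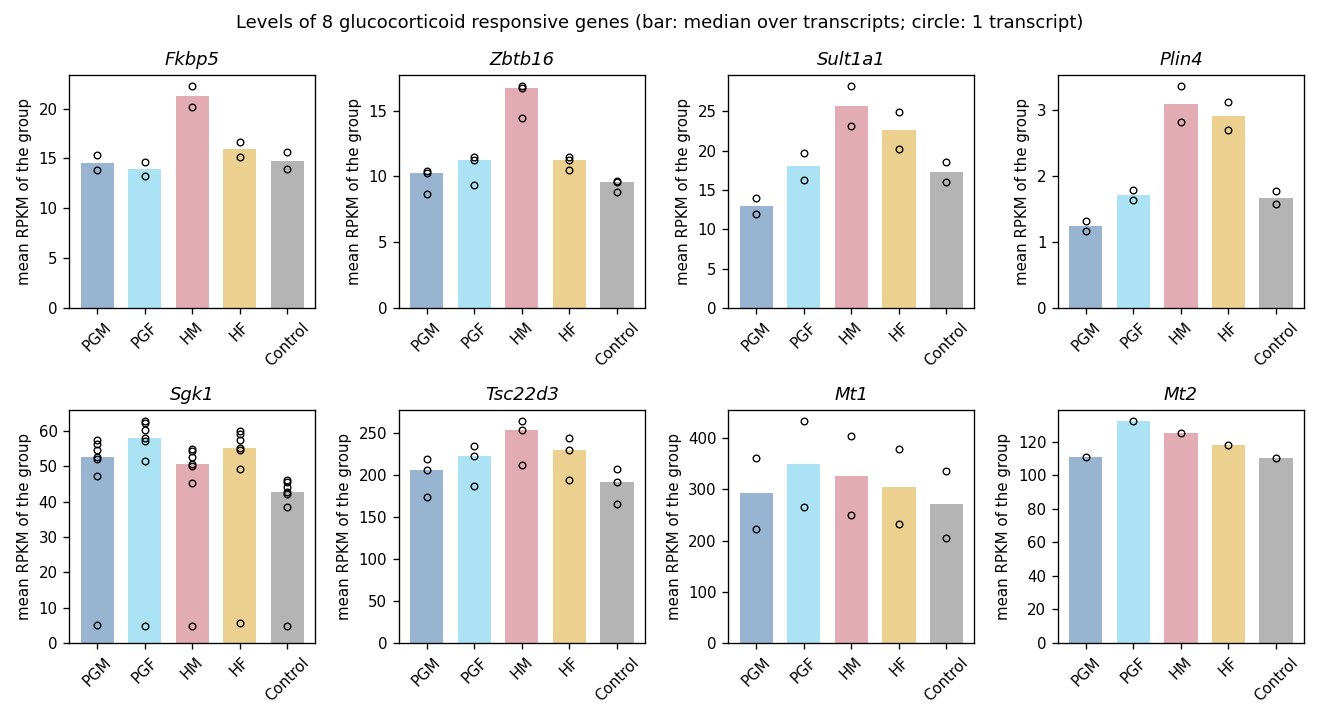
Level of each of the 8 genes in the 5 groups in mean RPKM (vertical axis, linear from 0), with bars at the median over transcripts and a circle for each transcript. There are no error bars because only group means were used. HM has the tallest bar for Fkbp5, Zbtb16, Sult1a1, Plin4 and Tsc22d3, and PGF for Sgk1, Mt1 and Mt2.

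The receptor cochaperone gene Fkbp5 (chromosome 17, 28398753 to 28486149) set HM apart from the other groups. Its level, as the median of 2 transcripts, was 14.6 RPKM in PGM, 14.0 in PGF, 21.2 in HM, 15.9 in HF and 14.8 in Control. PGM, PGF, HF and Control thus lay close together and HM above them. The difference from Control was 0.51 in HM on the log2 scale, a 1.42-fold higher level, and -0.02 in PGM, -0.08 in PGF and 0.10 in HF. Both transcripts behaved alike in HM, with 22.3 and 20.2 RPKM there, against 15.6 and 14.0 in Control.

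Zbtb16 (chromosome 9, 48651797 to 48836225) had the largest difference of the 8 genes in HM. Its level over 3 transcripts was 10.3 RPKM in PGM, 11.25 in PGF, 16.7 in HM, 11.3 in HF and 9.54 in Control. HM was again the high group, 1.71-fold above Control (0.78 on the log2 scale) and 1.46-fold above HF (0.55). PGF and HF lay at nearly the same level, each 1.17-fold above Control. Every transcript was higher in HM, with differences from Control between 0.68 and 0.78, whereas in PGM they ran from -0.02 to 0.11 with 2 of 3 above Control. Among the members the profile of Zbtb16 over the groups was closest to that of Fkbp5, at a root mean square distance of 0.11 on the log2 scale after each profile was centred on its own mean.

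Sult1a1 and Plin4 shared another pattern, high in both HM and HF and lowest in PGM. Sult1a1 (chromosome 7, 126672865 to 126690443) was at 13.0 RPKM in PGM, 18.0 in PGF, 25.7 in HM, 22.6 in HF and 17.2 in Control. PGM was the low group for this sulfotransferase gene, at a difference of -0.40 from Control and -0.46 from PGF, while HM and HF were at 0.56 and 0.38 from Control. Both of its transcripts kept these directions, with PGM differences from Control between -0.41 and -0.39.

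Plin4 (chromosome 17, 56100587 to 56109948), the lipid droplet gene, was the lowest of the 8 at 1.24 RPKM in PGM, 1.71 in PGF, 3.09 in HM, 2.91 in HF and 1.67 in Control. HM and HF lay well above the other groups, at differences of 0.72 and 0.65 from Control, and PGM below them at -0.32. Its levels lay near the filter of 1 RPKM and its difference in HM depended on the pseudocount, with 0.85 at a pseudocount of 0.1 and 0.61 at 1. The distance between the Plin4 and Sult1a1 profiles was 0.11, and each was the other's nearest member.

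Sgk1 (chromosome 10, 21882184 to 21999903), the kinase gene with the palindrome in its start site window, was lowest in Control. Its median over 7 transcripts was 52.6 RPKM in PGM, 57.9 in PGF, 50.6 in HM, 55.1 in HF and 42.6 in Control. All groups other than Control lay above 50 RPKM, PGF highest, with differences from Control of 0.30 in PGM and 0.44 in PGF, 0.24 in HM and 0.37 in HF. HM, the high group for Fkbp5 and Zbtb16, was here the closest to Control.

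The transcripts of Sgk1 did not share one profile. The transcript uc007eou.1 was at 5.16 RPKM in PGM, 4.75 in PGF, 4.78 in HM, 5.55 in HF and 4.71 in Control, while the other 6 transcripts lay between 38.5 and 62.9 RPKM. In PGF those 6 were 1.34 to 1.36 times their Control level, and uc007eou.1 was 1.01 times. The distance between them was narrower in HF, at 1.28 times or more for the 6 and 1.18 times for uc007eou.1. The table pairs these identifiers with the gene name only, so which start site each transcript uses is not reported here, and the sources used here do not say how reads shared by transcripts were assigned.

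**Figure D2:**
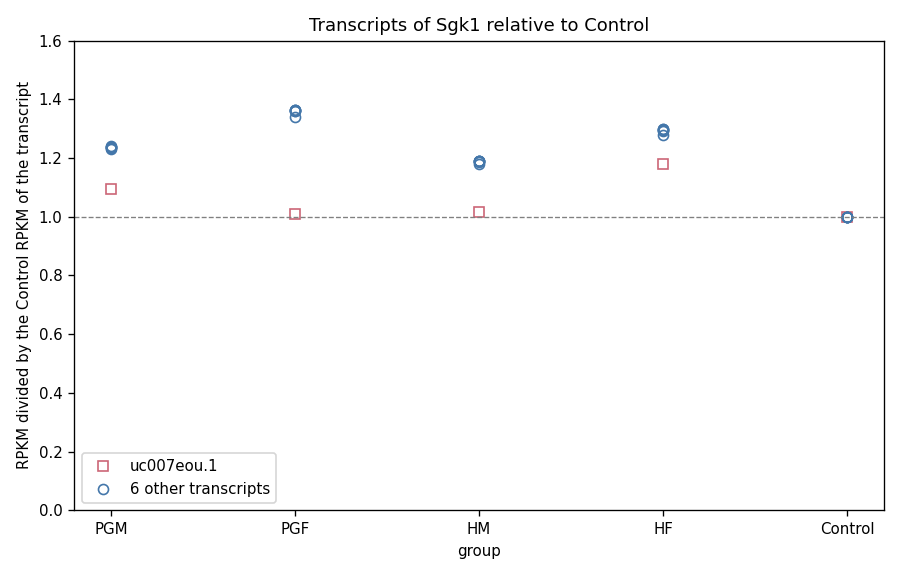
Level of each Sgk1 transcript in a group divided by its level in Control (vertical axis, from 0; dashed line at 1), with 6 transcripts as circles and uc007eou.1 as squares. In PGF the circles sit at 1.34 to 1.36 and the square at 1.01.

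Tsc22d3 (X chromosome, 140539528 to 140600522), which encodes GILZ, was abundant, at 206 RPKM in PGM, 222.7 in PGF, 253.7 in HM, 230.3 in HF and 191.6 in Control. The levels formed a graded series with HM highest and Control lowest. HM was 1.32-fold above Control (0.40) and HF 1.20-fold (0.26), with PGF at 0.22 and PGM at 0.10. The differences of its 3 transcripts from Control in HM lay between 0.35 and 0.40.

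The metallothionein genes lay next to each other on chromosome 8, Mt2 at 94172618 to 94173567 and Mt1 at 94178883 to 94180327. Mt1, as the median of 2 transcripts, was at 292.5 RPKM in PGM, 350.2 in PGF, 327.2 in HM, 305.4 in HF and 271.2 in Control. Mt2, with 1 transcript, was at 111 RPKM in PGM, 132.65 in PGF, 125.4 in HM, 118.2 in HF and 110.3 in Control. Both had the same order of groups, PGF first, then HM, HF, PGM and Control. In PGF the difference from Control was 0.37 for Mt1 and 0.27 for Mt2, and in HM 0.27 and 0.18. PGM differed little from Control, with 0.11 for Mt1 and 0.01 for Mt2, and the Mt2 value took the other sign, -0.02, under upper quartile scaling.

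The pair kept nearly the same proportion in all groups. Mt1 was 2.63 times Mt2 in PGM, 2.64 times in PGF, 2.61 times in HM, 2.58 times in HF and 2.46 times in Control. Their profiles were the closest of the 28 pairs of members, at a distance of 0.04. The coding sequences of these genes are much alike, and the sources used here do not say how reads that fit both were assigned, so their values are uncertain as single genes. Mt3, a metallothionein enriched in the brain, was at 421.7 RPKM in PGM, 432.7 in PGF, 403.3 in HM, 384.9 in HF and 351.1 in Control, differences of 0.26, 0.30, 0.20 and 0.13.

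Set side by side, the members showed the largest difference from Control in HM. There 8 of 8 genes were higher with a median of 0.46, whereas the median of all kept genes was -0.03 and 6958 of 17481 were higher. Zbtb16 and Plin4 were at least 1.5-fold higher, 2 of 8, where 0.675% of all genes were. At a lower threshold of 1.3-fold, 5 of 8 were higher (Fkbp5, Zbtb16, Sult1a1, Plin4 and Tsc22d3), where 1.95% of all genes were. Tsc22d3 fell below this threshold, 0.3785 on the log2 scale, with its highest transcript (0.35) and with the sum over its transcripts (0.37). The members were chosen with earlier results of these data known, so these counts describe the genes and are not independent evidence of a direction. With HF in place of Control the median for HM was 0.12 and none reached 1.5-fold.

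HF against Control gave 8 of 8 members higher, where 10241 of 17481 genes were. The median was 0.25, beside 0.02 over all genes. Plin4 alone was at least 1.5-fold higher, 1 of 8, where 0.658% of all genes were. Sult1a1 and Plin4 were at least 1.3-fold higher, 2 of 8, where 1.77% of all genes were. Sult1a1 lay at that threshold, at 0.3793 against 0.3785, and was at 0.37 under upper quartile scaling and with a pseudocount of 1. Fkbp5, the cochaperone gene, was at 0.10 in this comparison. With a pseudocount of 1, no member reached 1.5-fold.

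**Figure D3:**
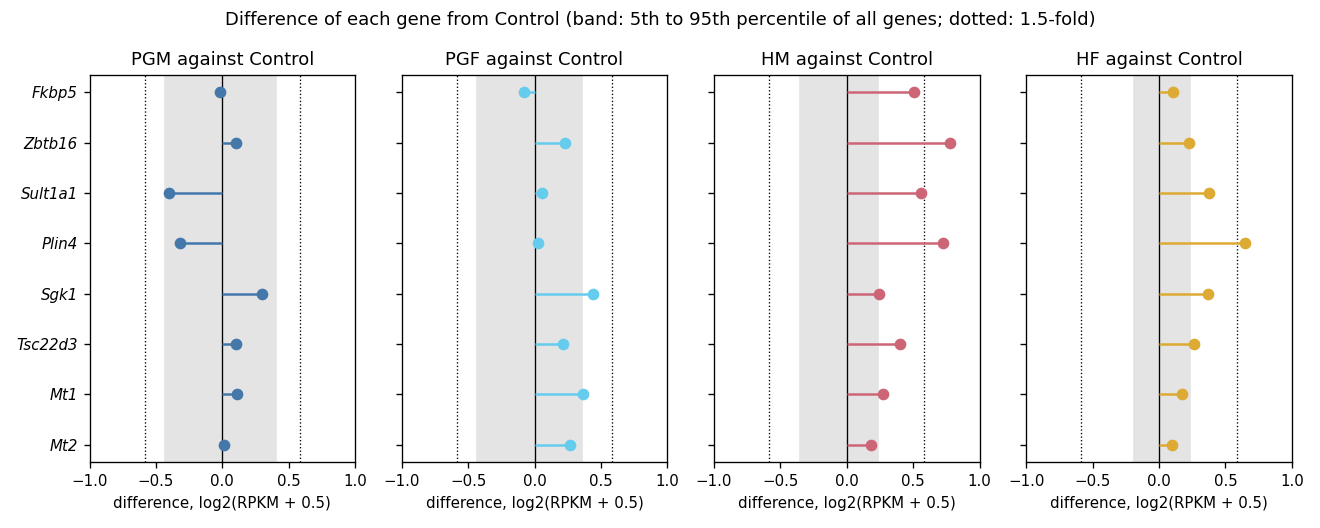
Difference of each gene from Control in log2(RPKM + 0.5) (horizontal axis) for PGM, PGF, HM and HF, with the grey band spanning the 5th to 95th percentile of 17481 genes and dotted lines at 1.5-fold. In HM the band ends at 0.24 and 7 of the 8 genes lie beyond it, while in PGM all 8 lie inside the band.

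PGF against Control gave 7 of 8 members higher, where 7721 of 17481 genes were, and Fkbp5 was the member on the other side of 0. The median was 0.22, beside -0.03 over all genes. No member reached 1.5-fold in either direction, where 4.04% of all genes did. Sgk1 was at least 1.3-fold higher, 1 of 8, where 4.62% of all genes were. Sult1a1 and Plin4 were within 0.06 of Control. With HF in place of Control the median was -0.025, beside -0.05 over all genes. Plin4 (-0.63) was then at least 1.5-fold lower in PGF, 1 of 8, where 3.28% of all genes were that far apart in either direction.

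PGM against Control had 5 of 8 members higher, where 8902 of 17481 genes were. The median was 0.06, beside 0.005 over all genes, while the mean over the members was -0.01. No member reached 1.5-fold, where 4.62% of all genes did. Sult1a1 was the member at least 1.3-fold lower, 1 of 8, where 7.02% of all genes were. In this group the members spread to both sides, from -0.40 for Sult1a1 to 0.30 for Sgk1. With HF in place of Control the median was -0.13, beside -0.02 over all genes. Sult1a1 (-0.78) and Plin4 (-0.97) were then at least 1.5-fold lower in PGM, 2 of 8, where 3.94% of all genes were that far apart in either direction.

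PGM against PGF had 7 of 8 members lower, where 6545 of 17481 genes were. The median was -0.20, beside 0.03 over all genes. Sult1a1, at -0.46, was at least 1.3-fold lower in PGM, 1 of 8 where 1.63% of all genes were, and Plin4 was at -0.34. Mt1 and Mt2 were both at -0.26, and Fkbp5 at 0.06. None reached 1.5-fold, where 0.99% of all genes did.

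HM against HF had 7 of 8 members higher, where 5425 of 17481 genes were. The median was 0.12, beside -0.05 over all genes. Zbtb16 and Fkbp5 were at least 1.3-fold higher in HM, at 0.55 and 0.40, 2 of 8 where 1.12% of all genes were, and none reached 1.5-fold, where 1.68% of all genes did in either direction. Sgk1 was the member lower in HM, at -0.12, and Plin4 and Sult1a1 were at 0.07 and 0.18. This comparison does not use Control. Xist and tissue markers differed here too, with Xist at -0.42 and medians of -0.83 for meningeal and 0.45 for thalamic markers. The Y-linked genes Ddx3y, Eif2s3y, Uty and Kdm5d were at 0.07, -0.06, -0.06 and -0.12. The part of these genes and markers in the result was not tested.

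The members differed widely in how far they varied between groups. The range between the highest and the lowest group was 0.27 for Mt2, 0.37 for Mt1, 0.40 for Tsc22d3, 0.44 for Sgk1, 0.59 for Fkbp5, 0.78 for Zbtb16, 0.96 for Sult1a1 and 1.04 for Plin4 on the log2 scale, with a median of 0.51, beside 0.23 over all kept genes. HM was the highest group for 5 members and PGF for 3. Control was the lowest group for 5, PGM for 2 and PGF for 1. How often each group was highest or lowest over all kept genes was not counted. These counts therefore do not set the members apart from other genes.

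Other genes known to respond to glucocorticoids had smaller medians than the 8 members in HM, HF, PGF and PGM. The list held 28 genes and 27 were kept, Lcn2 being under 1 RPKM. In HM 20 of 27 were higher with a median of 0.16, in HF 24 of 27 with 0.18, in PGF 17 of 27 with 0.13 and in PGM 14 of 27 with 0.02. Of all 17481 genes 6958 were higher in HM, 10241 in HF, 7721 in PGF and 8902 in PGM. None of the 27 reached 1.5-fold in PGM, HM or HF. Over all genes 4.62% did in PGM, 118 higher and 151 lower in HM, and 115 higher and 30 lower in HF. Dusp1, a phosphatase that switches off MAP kinases, did so in PGF at 29.2 RPKM, against 16.6 in Control, where 4.04% of all genes did. Mertk, a phagocytic receptor tyrosine kinase, had the largest difference in HM at 24.7 against 16.4 RPKM in Control, a difference of 0.58.

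The named genes of this list had different profiles. Fam107a, an actin-associated stress gene, was at 165 RPKM in PGM, 178.65 in PGF, 164.4 in HM, 132.3 in HF and 119.3 in Control. Arrdc2, an arrestin domain gene, was at 5.49 RPKM in PGM, 5.84 in PGF, 5.64 in HM, 5.23 in HF and 4.03 in Control. Cebpd, a transcription factor of inflammatory responses, went to both sides, with -0.57 in PGM and 0.56 in HF, and Gadd45g was at 0.48 in HF. Pdk4, an inhibitor of pyruvate dehydrogenase, was at -0.51 in PGM, and Nfkbia, the inhibitor of NF-kB, at 0.35 in HF. Klf9 was at 0.28 in PGM and 0.17 in PGF, 0.06 in HM and 0.06 in HF. Per1, a clock gene with a well-known response element, was lower by value in all 4 groups, at 20.7 RPKM in PGM, 19.8 in PGF, 21.1 in HM, 21.5 in HF and 23.0 in Control.

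**Figure D4:**
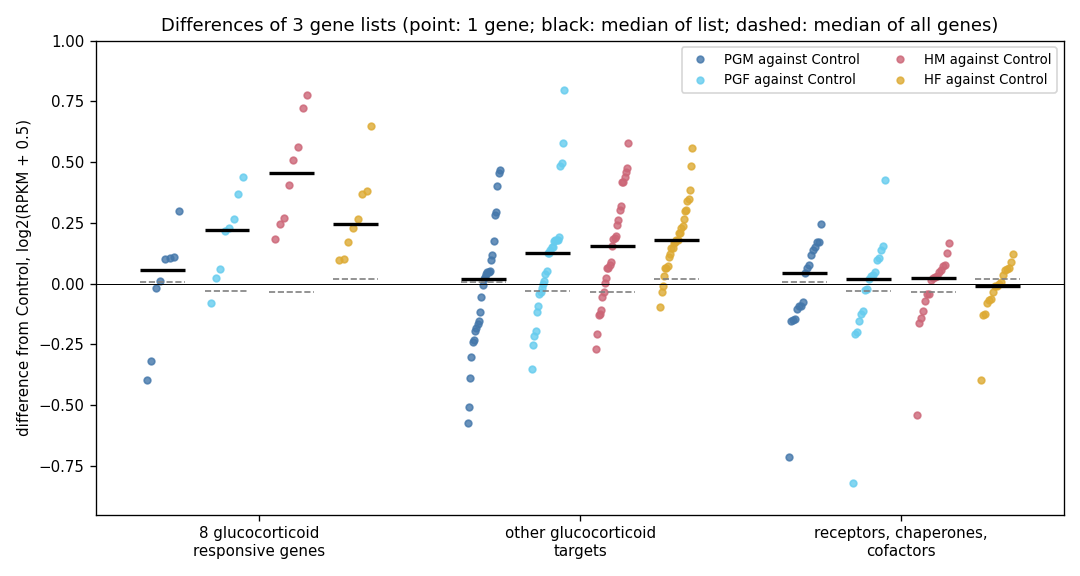
Differences from Control in log2(RPKM + 0.5) (vertical axis) of the 8 genes, of 27 other glucocorticoid targets and of 17 genes of the receptor, its chaperones, cofactors and steroid metabolism, with a point per gene, a black bar at the median of the list and a dashed bar at the median of all genes. In HM the black bars stand at 0.46, 0.16 and 0.02.

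Genes of the receptor, its partners and steroid metabolism had medians near 0. Of 18 listed genes 17 were kept, with medians of 0.04 in PGM and 0.02 in PGF, 0.02 in HM and -0.01 in HF. Nr3c1, the glucocorticoid receptor gene, was at 56.95 RPKM in PGM, 59.8 in PGF, 57.8 in HM, 55.7 in HF and 60.7 in Control, and Nr3c2, the mineralocorticoid receptor gene, at 14.8, 15.0, 13.6 and 15.3 RPKM, against 14.0 in Control. Hsp90ab1, a chaperone of the complex, was at 0.17 in PGM and 0.14 in PGF, 0.13 in HM and 0.06 in HF. Fkbp4, the cochaperone that opposes Fkbp5, was at 0.14 in PGM, 0.11 in PGF and 0.08 in HM, and within 0.01 of Control in HF. Hsd11b1, the enzyme that regenerates active glucocorticoid in the cell, was at 10.2 RPKM in PGM and 11.6 in PGF, against 8.50 in Control, and within 0.09 of Control in HM and HF.

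Genes of the stress axis had a median below 0 in PGM, PGF and HM and near 0 in HF. Of 9 listed, 8 were kept, with medians of -0.44 in PGM and -0.29 in PGF, -0.10 in HM and -0.02 in HF, while the mean in PGF was 0.13. Crh, the releasing hormone gene that glucocorticoids restrain in the paraventricular nucleus, was at 9.62, 9.48, 10.6 and 11.5 RPKM, against 9.19 in Control. Avp, the vasopressin gene and also one of the hypothalamic neuron markers, was at -0.90 in PGM and -1.30 in PGF, -0.33 in HM and -0.34 in HF. The medians of those markers were -0.77, -0.99, -0.26 and -0.10 in these groups. Adcyap1, which encodes the neuropeptide PACAP, was at -0.71, -0.69, -0.37 and -0.15. Pomc, the precursor gene of corticotropin and also one of the pituitary markers, had 369.7 RPKM in PGF and 24.3 in Control, and was below Control by value in PGM, HM and HF. The members' near relatives, 16 kept of 23 listed, had medians of 0.13 in PGM and 0.11 in PGF, 0.05 in HM and 0.03 in HF, where those of the members were 0.06, 0.22, 0.46 and 0.25. Sgk2 was at 3.54 RPKM in PGM, 4.37 in PGF, 3.19 in HM, 2.44 in HF and 2.18 in Control. Zbtb7b, a zinc finger gene of the same family as Zbtb16, was at 13.5, 14.5, 11.2 and 9.16 RPKM, against 8.53 in Control. Plin2, Plin3 and Plin5 differed from Control by -0.20 (Plin5 in PGF) to 0.20 (Plin3 in HF), where Plin4 was at 0.72 in HM. Genes of metal handling had medians of 0.01 in PGM and 0.02 in PGF, -0.05 in HM and 0.02 in HF over 10 of 10 kept, and Mtf1, the factor that binds the metal response element, was within 0.07 of Control throughout. Slc30a3, the zinc transporter of synaptic vesicles, was at 8.15 RPKM in PGM and 7.73 in PGF, against 5.03 in Control.

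The genes with the profiles most like the members were found among 13503 named genes by the smallest distance over the 5 groups. For Fkbp5 they were Efcab10 (0.08), Cdkn1a (0.09) and Mertk (0.09), and for Zbtb16 Mertk (0.07), Cmtm3 (0.09) and Snord85 (0.10). Sult1a1 was nearest to Snord47 (0.08), Plin4 (0.11) and Mir453 (0.12), and Plin4 to Cartpt (0.10), Sult1a1 (0.11) and Mir453 (0.14). Sgk1 lay nearest to Snord35a (0.03), Mmel1 (0.04) and Dia2 (0.04). Mt1 was nearest to Hspb6 (0.02), Sh3bgr (0.03) and Fmn1 (0.04), and Mt2 to Fmn1, Syngr2 and Lipa (each 0.02). For Tsc22d3 the nearest were Tilz3b (0.002), Sdc4 (0.03) and Hspa2 (0.04). With 5 group means and so many genes a close profile is easily found, and several of the names are small RNA genes.

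Levels of cell type and tissue markers also differed between the groups, and fewer cells of a type cannot be told apart from less RNA per cell. Oligodendrocyte markers, of a cell type in which several members are expressed, were higher in 10 of 10 cases in each of the 4 groups, with medians of 0.68 in PGM and 1.03 in PGF, 0.49 in HM and 0.08 in HF and summed levels of 6546, 7980, 5511 and 4192 RPKM, against 3976 in Control. Sgk1 and the metallothionein genes were highest in PGF, as these markers were, whereas Fkbp5 was lowest in PGF. The order of the other groups was not shared. The markers were higher in PGM than in HF, while Sgk1, Mt1 and Mt2 were at 0.30, 0.11 and 0.01 in PGM and 0.37, 0.17 and 0.10 in HF. HM, where Fkbp5 and Zbtb16 were highest, and HF, where Fkbp5 was at 0.10 and Zbtb16 at 0.23 from Control, differed by 0.38 in the median of these markers. Their part in the members' differences was not tested.

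Astrocyte markers, of the cell type rich in metallothioneins, were lower in 7 of 10 cases in HM and in PGF. Their medians were -0.04 in HM and -0.12 in PGF. PGM had 6 of 10 lower with a median of -0.16, and HF 6 of 10 with -0.02. Of all 17481 genes 10466 were lower in HM and 9719 in PGF, at a median of -0.03 in both. PGM and HF had 8534 and 7178 genes lower, at medians of 0.005 and 0.02. Summed astrocyte levels were lowest for PGM at 2204 RPKM, then 2246 for PGF, 2318 for HM and 2343 for HF, against 2444 in Control. Markers of endothelium and pericytes were lower in 9 of 10 cases in HM with a median of -0.18, at a summed 366 RPKM, against 395.7 in Control. Meningeal markers were lower in 10 of 10 cases in PGM, PGF and HM, with medians of -0.92, -0.55 and -0.67 and a summed 185.9 RPKM in HM, against 288.4 in Control, and were higher in 9 of 10 in HF with 0.20. The pituitary markers were higher in 7 of 7 kept cases in PGF, at a summed 2025 RPKM, against 97.3 in Control, and Prl was listed at 0 in HF. Thalamic markers were higher in 8 of 8 cases in PGM, PGF and HM, with medians of 1.27, 1.04 and 0.52, and in 3 of 8 in HF. The part of these tissues in the members' levels was not tested.

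**Figure D5:**
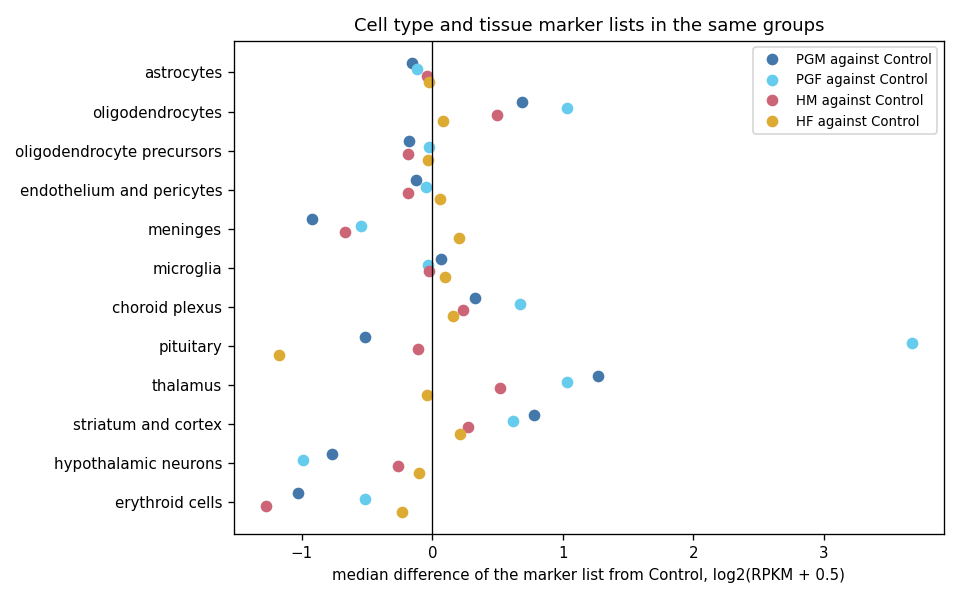
Median difference from Control in log2(RPKM + 0.5) (horizontal axis) of 12 marker lists in PGM, PGF, HM and HF, a point per list and group. Oligodendrocyte markers stand at 0.68, 1.03, 0.49 and 0.08, and astrocyte markers between -0.16 and -0.02.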

How the data were processed

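Total RNA from 15 hypothalamus samples was sequenced, and samples were grouped by their titles. FastQC served for read quality and Novoalign 2.08 for alignment to mm10, per the submitters' processing notes. The deposited values are RPKM means of each group, made by the authors, per the file headers, and written with 2 decimals. The sources used here do not name the counting program or its use of strand. RPKM depends on what other genes take of a library. Depth is unknown, so no interval or floor is given.

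A line of text inside the table was left out. The median over the transcripts of a gene name was taken, names were kept from a mean of 1 RPKM upward, and differences of log2(RPKM + 0.5) were described for 6 comparisons at 1.5-fold, with no test since each group has 1 value. The scale and the counts at 1.5-fold were checked on Control values with small added noise and changes of known size. That check did not cover the filter, low genes such as Plin4 or the spread between animals. Members and gene lists were chosen with earlier results of these data known, and the threshold of 1.3-fold and HF as reference were added after the data were seen. Genes named outside the members were those with the largest differences of each list, up to 4 per comparison with at least 2 RPKM in 1 group, and 7 fixed genes; some of the first kind are summarised by their list only or are not reported here, and a few given as family members or examples were chosen after their values were seen. Alternatives were pseudocounts of 0.1 and 1, no filter or 3 RPKM, upper quartile scaling, and the highest transcript or the sum over transcripts. Gene positions and sequences are RefSeq's, in GRCm38.p6. Python 3.11.15, numpy 2.4.6, pandas 2.3.3 and matplotlib 3.10.9 were used.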

Additional observations from a re-analysis of the deposited data

How the results depend on the processing

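The medians over the 8 genes kept within 0.1 of the reported value in all 6 comparisons under both other pseudocounts, both other filters, upper quartile scaling, the highest transcript and the sum over transcripts. With HF in place of Control the median was -0.13 for PGM, -0.025 for PGF and 0.12 for HM, where the values against Control were 0.06, 0.22 and 0.46, so the sign for PGM and PGF depended on which group served as reference. With HF as reference 2 genes were at least 1.5-fold apart in PGM, 1 in PGF and 0 in HM, beside 3.94%, 3.28% and 1.68% of all genes, where the numbers against Control were 0, 0 and 2. In HM the number against Control was 1 with a filter of 3 RPKM, which left out Plin4, and 3 with the highest transcript, which added Sult1a1 at 0.60, and in HF it was 0 with that filter and 0 with a pseudocount of 1. The share of all genes was not counted under these other settings. At a threshold of 1.3-fold in either direction the number against Control was 1 for PGM, beside 973 higher and 1227 lower of 17481 genes. In PGF it was 1, beside 807 higher and 1245 lower. In HM it was 5, beside 341 and 685, and in HF 2, beside 309 and 127. Between PGM and PGF it was 1, beside 309 and 285, and between HM and HF 2, beside 195 and 681. These 1.3-fold counts were made at the reported settings only. Over the settings Tsc22d3 in HM ran from 0.35 to 0.42 and Sult1a1 in HF from 0.37 to 0.42, so both crossed the threshold of 0.3785. Plin4 crossed it too, lower in PGM against Control (-0.40 to -0.25) and against PGF (-0.43 to -0.27). Of 48 differences of single genes over 5 settings, 1 took another sign, Mt2 in PGM, and 2 moved by over 0.1, those of Plin4 in HM (0.61 to 0.85) and HF (0.55 to 0.76). No paired analysis was possible because the table holds 1 mean per group, and leaving out replicates was not run for the same reason.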

Other observations

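The table lists Tilz3b apart from Tsc22d3, at 131.4 RPKM in PGM, 142 in PGF, 162 in HM, 147.3 in HF and 122.5 in Control. Its profile differed from that of Tsc22d3 by 0.002, while the nearest profile of another name, Sdc4, differed by 0.03. RefSeq gives Tilz3 among the other names of Tsc22d3, and the sources used here do not say whether the entries count the same reads.

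The 2 transcripts of Mt1 kept their proportion in all groups, uc009mvw.2 being 1.63 times uc009mvx.2 in PGM, 1.64 in PGF, 1.62 in HM, 1.63 in HF and 1.64 in Control. For Sgk1, uc007eox.2 was 11.1 times uc007eou.1 in PGM, 13.2 in PGF, 11.5 in HM, 10.8 in HF and 9.81 in Control. Mt1 was 0.69 times Mt3 in PGM, 0.81 in PGF, 0.81 in HM, 0.79 in HF and 0.77 in Control.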
